A study of Mus musculus with 2 samples.

Results

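The genes described here are 35 subunits of ATP-dependent chromatin remodelling complexes of the BAF (SWI/SNF), ISWI, NuRD, CHD and INO80 families, out of 21938 protein-coding genes in the mouse annotation GENCODE M21. They were named as a list, with no measured value in the rule. The assay was ATAC-seq, in which a transposase inserts adapters into accessible DNA. The material was activated regulatory T cells, a primary cell type, from male adult animals aged 4 months, and the strain label names the alleles Foxp3CreERT2 and Rosa26YFP. In such mice a tamoxifen-activated Cre is made from the Foxp3 gene and a yellow fluorescent reporter is switched on by recombination, so labelled cells are ones that expressed Foxp3 when Cre was active. The number of animals and the activation protocol are not described in the labels, which also give a bone marrow haematopoietic cell as the origin. The series held 1 group of 2 libraries, both technical replicates of 1 biological replicate, with no control group. All peak lists came from 1 alignment, so no value belongs to 1 library, replicate error cannot be given and no test was made. Depth is unknown.

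Remodelling complexes use ATP to slide, evict or exchange nucleosomes and so open or close DNA to transcription factors. BAF complexes are built from positions that can each be filled by 1 of several paralogous subunits, and the choice of paralog changes between tissues, as in neurons, which exchange several subunits for neural forms. In mouse T cells, BRG1-containing complexes act in thymic development and in regulatory T cell activation, and the BRD9-containing form has been tied to Foxp3 expression. Accessible DNA at a start site is a property of the gene and not a measure of its protein.

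Peaks that passed an irreproducible discovery rate (IDR) threshold numbered 48668 and merged into 26090 regions. IDR estimates how likely a peak is to fail to recur between 2 ranked inputs. A promoter region lay within 1000 bp of any annotated transcription start site (TSS) of a gene. A region was assigned to the gene whose TSS was nearest to its strongest summit, within 100 kb, and an assigned region over 1000 bp from every protein-coding TSS was distal. Signal is the enrichment that the authors' peak caller wrote for the strongest summit, and percentiles of promoter signal are among the 10774 genes with a promoter region. Of the markers checked, 4 of 5 T cell genes (all but Cd4), 4 of 5 regulatory T cell genes (all but Tnfrsf18) and 4 of 4 activation genes had a promoter region, against 1 of 4 B cell genes and 0 of 4 myeloid, 0 of 2 NK cell, 0 of 2 erythroid and 0 of 4 neuronal genes. The NK cell gene Klrb1c had 8 assigned regions.

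A promoter region was found at 28 of the 35 remodeller genes (80.0%, Wilson 95% interval 64.1 to 90.0), against 49.1% of all protein-coding genes. At least 1 assigned region was found for 28 members, against 53.1% of all genes, and at least 1 distal region for 15, against 27.6%. The interval covers counting error only. Read in the pseudoreplicated list, which also holds peaks that did not pass the IDR threshold, 31 members had a promoter region, against 55.7% of all genes. With an IDR of 0.01 or below, 26 had one, against 45.6%. Remodeller promoters were rich in CpG dinucleotides, with a median observed-to-expected CpG ratio of 0.907, against 0.627 over all genes, and genes with a promoter region had a higher ratio (median 0.775) than genes without one (0.302). All members but Smarca1 had a ratio of 0.6 or more. Of the 11528 genes with such a ratio, only 2637 had no promoter region, so the 49.1% is a low base for genes of this composition. The part of base composition in the members' count was not tested. Among 53 further remodeller genes read as a list beside the members, 48 (90.6%) had a promoter region.

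Although most members had a promoter region, the regions were of modest signal. The strongest promoter region of the 28 members had a median signal of 13.9 (range 6.49 to 30.8), against 16.6 over all genes with one, and 21 members lay below that all-gene median and 7 above it. The members' regions were wider (median 1022 bp, against 875 bp) and held more summits (median 3, against 2). They were also richer in G and C, at a median of 64.4%, against 60.6% over all genes. In the GC-richest quintile of promoter regions, which held 10 of the 28 members, the members' median signal was 11.4, against 14.2 over all genes. Medians over all genes in the other quintiles were between 16.3 and 17.9. Within 4 of the 5 quintiles the members' median was below that of all genes, and the exception was the second quintile, whose 1 member was Chd8. Of the other 53 remodeller genes, the 48 with a promoter region had a median of 16.7.

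**Figure D1:**
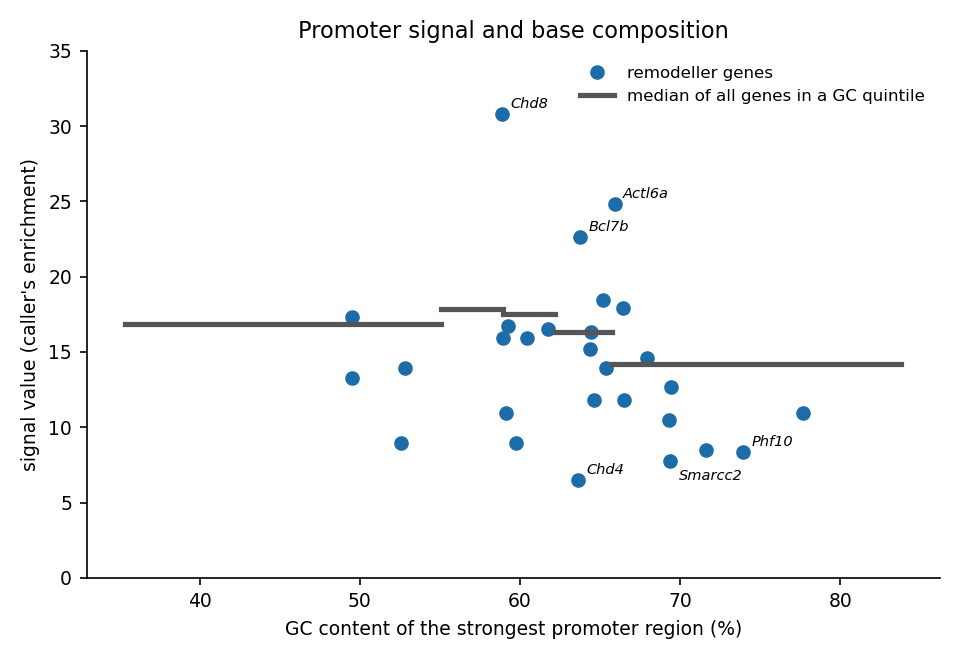
Signal of the strongest promoter region of each of the 28 remodeller genes with one (points) against its GC content in percent, with the median of all genes in each GC quintile (bars spanning that quintile). Chd8, Actl6a and Bcl7b lie above the bars, and Chd4, Smarcc2 and Phf10 lie well below them.

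The contrast between alternative subunits could be drawn at 11 complex positions, filled by 28 of the members. At 5 of these positions at least 1 alternative lacked a promoter region, namely BAF53, BAF45, BCL7, the ISWI ATPase and the NuRD ATPase. A position counts here if any of its alternatives lacked one, and 11164 of all 21938 genes did. The number of such positions to be expected from that share was not computed. The 7 members without one were Actl6b, Dpf1, Bcl7a, Bcl7c, Smarca1, Chd3 and Chd5. Of the 7 members known mainly from neural or muscle tissue (Actl6b, Dpf1, Dpf3, Ss18l1, Smarca1, Smarcd3 and Chd5), 3 had a promoter region (42.9%, Wilson 95% interval 15.8 to 74.95), a share near the 49.1% of all genes. Of the other 28 members, 25 had one. In the pseudoreplicated list 4 of the 7 had one (57.1%), against 55.7% of all genes. The CpG ratio of the members without a promoter region had a median of 0.811 (range 0.542 to 0.919), against 0.302 over all genes without one, and was 0.6 or more at 6 of the 7, all but Smarca1. The 28 members with a promoter region had a higher median, 0.918, and a lowest ratio of 0.668. Over all genes, 2637 of the 11164 genes without a promoter region had a CpG ratio of 0.6 or more. With or without a promoter region, 11528 genes had such a ratio.

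**Figure D2:**
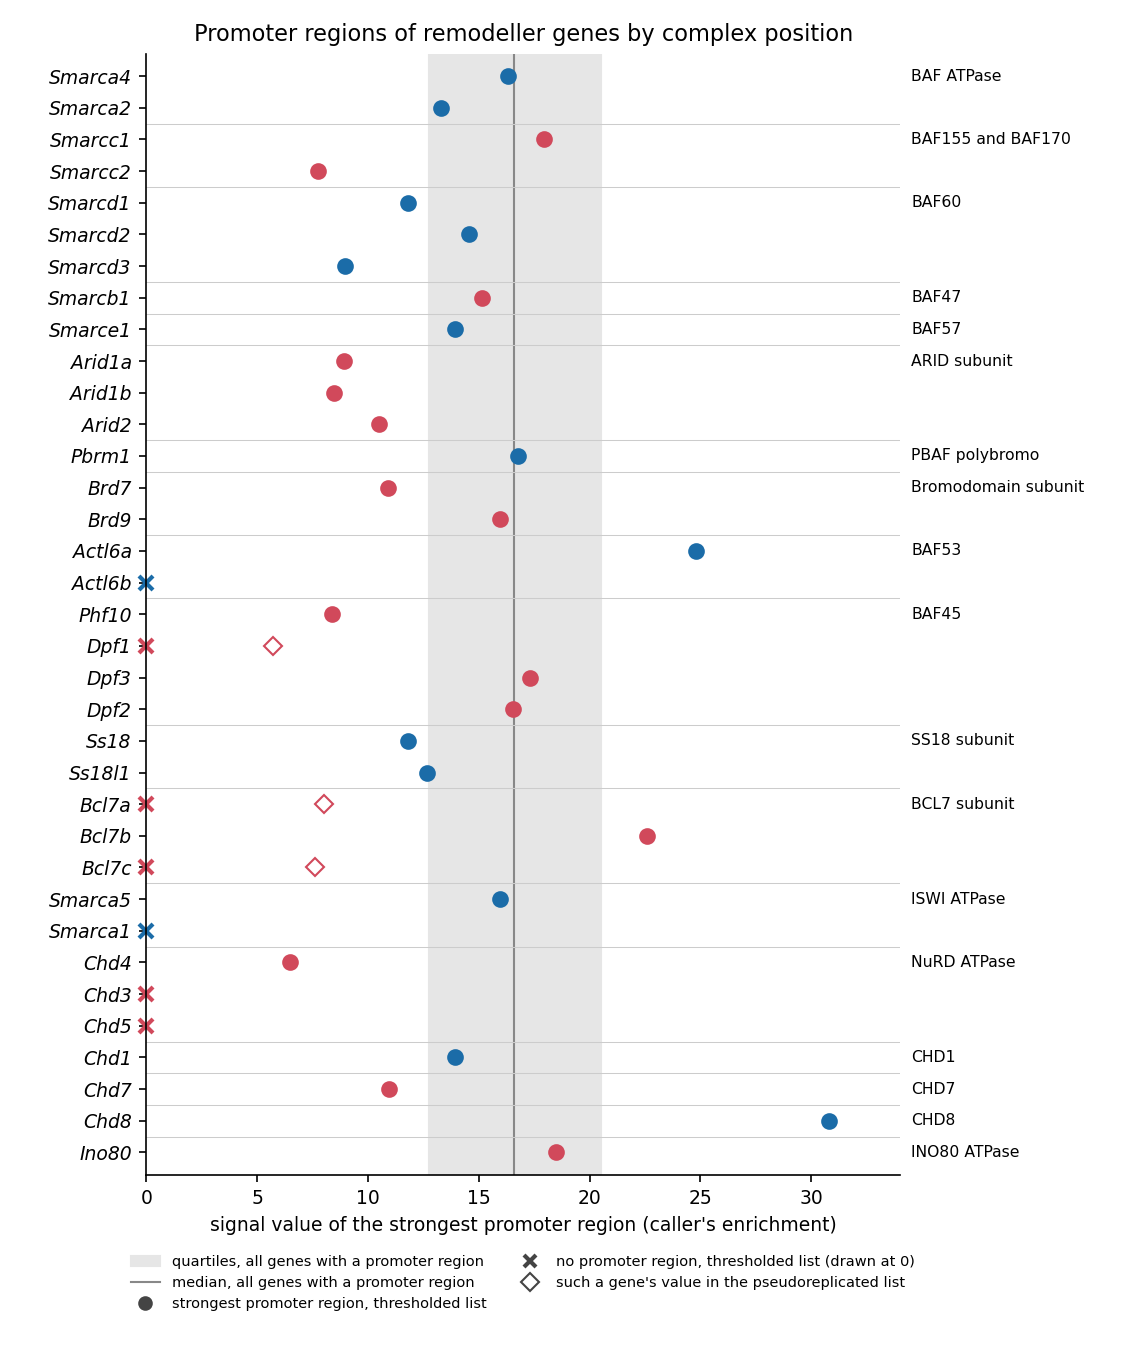
Signal of the strongest promoter region of each remodeller gene, grouped by complex position, with the quartiles of all genes with a promoter region as a grey band (12.7 to 20.5) and their median as a line (16.6). Crosses at 0 mark the 7 genes with no promoter region in the thresholded list, and open diamonds give the value that Dpf1, Bcl7a and Bcl7c had in the pseudoreplicated list.

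The catalytic ATPases of BAF are Smarca4, which encodes BRG1, and Smarca2, which encodes BRM. Both had accessible start sites, but in different arrangements. Smarca4 had 1 promoter region, 1220 bp wide with 4 summits (chr9:21615511-21616730, signal 16.3, 48.3rd percentile). Smarca2 had 3, of which the one with the highest signal (chr19:26747653-26748547, signal 13.3) lay at TSSs deep inside the gene, its summit 142946 bp from the 5′ end. The region at the Smarca2 5′ end (chr19:26604591-26605294) had a signal of 11.99, and the third, 2360 bp downstream of the 5′ end (chr19:26607108-26607579), had 7.02. The annotation places 42 TSSs of Smarca2 in 18 clusters, of which 3 were covered. The order of Smarca4 and Smarca2 depended on the measure. Their signal ratio was 1.23, while the ratios of their −log10 p values in the 2 ranked inputs were 0.640 and 0.780, so the measures do not order the pair the same way. These ratios use the inner Smarca2 region, which was the higher in signal but the lower in −log10 p, at 59.7 and 81.1 in the inputs, against 125 and 125 for the region at the 5′ end.

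The 120 bases upstream of these 3 starts are shown in the genes' direction (plus strand, GRCm38.p6, the mm10 assembly) because they differ in composition. They span chr9:21616049-21616168 for Smarca4, chr19:26604930-26605049 for the Smarca2 5′ end and chr19:26748069-26748188 for the inner Smarca2 start. Capitals mark a match to the NRF1 motif (GCGCATGC, searched on both strands).
Smarca4: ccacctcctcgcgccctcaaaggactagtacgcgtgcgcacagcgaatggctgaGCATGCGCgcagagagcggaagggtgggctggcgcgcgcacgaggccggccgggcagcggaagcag
Smarca2, 5′ end: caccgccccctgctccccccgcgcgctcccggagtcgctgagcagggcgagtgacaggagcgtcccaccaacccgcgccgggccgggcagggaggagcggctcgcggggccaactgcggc
Smarca2, inner start: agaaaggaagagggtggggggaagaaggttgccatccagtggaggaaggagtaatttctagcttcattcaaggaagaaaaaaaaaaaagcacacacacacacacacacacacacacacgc
The Smarca4 stretch and the stretch at the Smarca2 5′ end held 16 CpG dinucleotides each, and the inner Smarca2 stretch held 1. GC content was 70.8% for Smarca4, 79.2% for the Smarca2 5′ end and 45.8% for the inner start. The NRF1 letters were found in the 201 bases around the summit of 3 of the members' 35 promoter regions (8.57%), those of Smarca4, Smarcc1 and Smarcb1, against 3.91% of all promoter regions. In the same windows ETS letters were found in 2 (5.71%, against 7.87%), and CRE and TATA box letters in 0 (against 3.56% and 1.11%). CTCF core letters were found in 4 (11.4%, against 10.9%) and YY1 letters in 1 (2.86%, against 2.67%). These differences were not tested.

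Each of the BAF ATPase genes also had a distal region of high signal. The Smarca4 one lay 6078 bp upstream of the gene (chr9:21609826-21610335, signal 27.6), which put it at the 99.2nd percentile of the 13372 distal regions of all genes. Smarca2 had one in intron 19 (chr19:26683630-26684153, signal 26.7, 98.8th percentile) and one in intron 5 (chr19:26646045-26646597, signal 18.5). All 3 exceeded the promoter signal of their own gene. The 201 bases centred on the summits of the first pair are shown because they hold motifs of factors that act in activated T cells (plus strand, GRCm38.p6, chr9:21609991-21610191 for Smarca4 and chr19:26683849-26684049 for Smarca2). Capitals mark the AP-1 motif (TGANTCA) and the RUNX motif (TGTGGTT), each searched on both strands.
Smarca4, upstream region: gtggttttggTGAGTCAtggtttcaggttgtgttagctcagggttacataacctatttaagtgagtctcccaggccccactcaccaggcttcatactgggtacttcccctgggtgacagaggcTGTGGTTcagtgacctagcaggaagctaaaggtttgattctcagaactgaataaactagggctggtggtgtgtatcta
Smarca2, intron 19 region: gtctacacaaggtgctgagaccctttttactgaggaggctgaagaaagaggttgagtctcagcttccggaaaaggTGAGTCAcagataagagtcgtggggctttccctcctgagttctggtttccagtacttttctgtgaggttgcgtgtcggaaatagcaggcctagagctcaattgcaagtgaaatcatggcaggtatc
The Smarca4 window holds both motifs and the Smarca2 window AP-1. A match describes the letters and is not evidence of binding.

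The scaffold subunits BAF155 and BAF170 are encoded by Smarcc1 and Smarcc2, which pair with each other in BAF complexes. Smarcc1 had a promoter signal of 17.9 (chr9:110131613-110132657, 59.3rd percentile) and Smarcc2 of 7.76 (chr10:128458363-128460077, 3.55th percentile). Their ratio was 2.31 by signal and 2.77 and 2.52 in the 2 inputs, so Smarcc1 was higher in all 3 measures. The Smarcc2 region was the wider, at 1715 bp with 5 summits, against 1045 bp and 3 summits for Smarcc1. The Smarcc1 region lay at an inner start 14272 bp from the gene's most upstream TSS. That upstream TSS was covered by a second region (chr9:110116796-110118140, signal 16.3) whose summit is nearer to Dhx30. Smarcc2 had a distal region 20133 bp upstream, inside Rnf41 (chr10:128438875-128439278, signal 9.33). Smarcc1 had none.

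BAF60 proteins link the complex to transcription factors. Smarcd2, which encodes BAF60b and is required for granulocyte development, had the highest promoter signal of the trio at 14.6 (chr11:106272354-106273380). Smarcd1, which encodes BAF60a, had 11.8 (chr15:99701743-99702686) with an IDR of 0.0128, and lost its promoter region when only peaks with an IDR of 0.01 or below were kept. Smarcd3, which encodes the muscle and neural form BAF60c, had 8.95 (chr5:24596552-24597705). Its region lay at an inner TSS cluster 27422 bp from the 5′ end, and the 5′ end itself had no region. Smarcd2 exceeded Smarcd3 in all 3 measures, with a signal ratio of 1.63 and input ratios of 2.66 and 2.63. Smarcd1 and Smarcd3 were not ordered alike by the 3 measures. None of the trio had a distal region.

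The ARID subunits decide which kind of BAF complex forms. Arid1a and Arid1b are mutually exclusive in canonical BAF, and Arid2 belongs to PBAF. All 3 had promoter regions of low signal, at 8.94 for Arid1a (chr4:133756673-133757122), 8.49 for Arid1b (chr17:4994061-4994666) and 10.5 for Arid2 (chr15:96286256-96287174). Arid1a and Arid1b differed by a signal ratio of 1.05 and changed order between the inputs. Arid2 was higher than both in all 3 measures, and its summit lay 747 bp upstream of the nearest TSS. Arid1a had 5 distal regions and Arid1b had 6, more than any other BAF subunit gene in the thresholded list, and Arid2 had 2. With those near starts, the position held 17 regions. At an IDR of 0.01 or below, Arid1a and Arid1b had 3 distal regions each, fewer than the 4 of Ss18.

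In Arid1a the distal regions lay in intron 4 (chr4:133706542-133707331, signal 19.4), in intron 1 (chr4:133729537-133730195, signal 9.31, and chr4:133751544-133751926, signal 9.71) and 47768 and 48088 bp upstream (chr4:133804386-133804690, signal 12.5, and chr4:133804758-133804949, signal 3.71). The weakest of these, at 3.71, had the same input values as its neighbour and was not in the pseudoreplicated list. A further Arid1a region at an inner start (chr4:133754231-133754577) had a signal of 5.74. In Arid1b they lay in intron 1 (chr17:5007010-5007674, signal 20.1), 13962 bp upstream (chr17:4979949-4980706, signal 18.1) and in intron 4 (chr17:5138553-5139273, signal 16.5). The remaining Arid1b regions lay in intron 3 (chr17:5126081-5126432, signal 14.0), 85913 bp upstream (chr17:4907826-4908774, signal 10.98) and in intron 2 (chr17:5089621-5089974, signal 8.55). The strongest Arid2 distal region was in intron 3 (chr15:96297597-96298219, signal 19.5). In each of the 3 genes the strongest distal region exceeded the promoter signal.

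Bromodomain subunits mark the other forms, with Pbrm1 and Brd7 in PBAF and Brd9 in non-canonical BAF. Brd9 had a signal of 16.0 (chr13:73937359-73938531) and Brd7 of 10.9 (chr8:88361638-88363002). Brd9 was higher than Brd7 in all 3 measures, the ratio of Brd7 to Brd9 being 0.685 by signal and 0.429 and 0.324 in the inputs. The Brd9 region is shared with the neighbouring gene Trip13, whose TSS was nearer to the summit, so Brd9 had a promoter region but 0 assigned regions. Pbrm1, which encodes the polybromo protein BAF180, had 2 promoter regions (chr14:31019344-31019797, signal 16.8, and chr14:31018723-31019281, signal 7.17), which both lay within 1000 bp of a TSS of Gnl3, a neighbour on the opposite strand. The summit of the weaker one lay inside Gnl3.

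The actin-related subunit BAF53 gave a clear difference. Actl6a, which encodes BAF53a of dividing cells, had a signal of 24.8 (chr3:32708243-32709293, 92.4th percentile), with −log10 p values of 253 and 206 in the 2 inputs. Actl6b, which encodes the neuronal form BAF53b, had no region in the thresholded or the pseudoreplicated list, and its nearest thresholded region lay 19617 bp away. The Actl6a region lay at an inner TSS cluster 2209 bp downstream of the gene's most upstream annotated TSS, which itself had no region. Its summit was 2295 bp from that upstream TSS. A distal Actl6a region lay 7885 bp upstream (chr3:32698287-32698534, signal 11.8).

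BAF45 subunits carry PHD fingers that read histone tails. Dpf2, the broadly expressed BAF45d, had a signal of 16.5 (chr19:5912289-5913062) but an IDR of 0.0125, so it was lost at 0.01. Dpf3, which encodes BAF45c of heart, muscle and neurons, had 17.3 (chr12:83487467-83488227) and was higher than Dpf2 in all 3 measures, with a signal ratio of 1.05 and input ratios of 1.74 and 2.61. Phf10, the PBAF form BAF45a, had 8.36 (chr17:14960984-14962279). Phf10 was the 1 member of 28 whose inputs differed by over 2-fold, at 37.0 and 12.2 on the −log10 p scale. Over all genes, the inputs were within 2-fold for 98.6% of strongest promoter regions. Dpf1, the neural BAF45b, had no thresholded promoter region and its nearest thresholded region lay 65391 bp away. In the pseudoreplicated list Dpf1 had 2 promoter regions (chr7:29303772-29304062, signal 5.73, and chr7:29307674-29308032, signal 5.43), each with an IDR of 0.388.

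The upstream 120 bases of Dpf3 (minus strand, chr12:83487717-83487836) and of Dpf1 (plus strand, chr7:29303831-29303950) are shown in GRCm38.p6 because they differ in CpG count. Dpf1 is the one without a thresholded region. Capitals mark the GC box (GGGGCGGG, searched on both strands).
Dpf3: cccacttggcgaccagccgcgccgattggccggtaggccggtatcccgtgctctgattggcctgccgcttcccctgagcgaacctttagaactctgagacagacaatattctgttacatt
Dpf1: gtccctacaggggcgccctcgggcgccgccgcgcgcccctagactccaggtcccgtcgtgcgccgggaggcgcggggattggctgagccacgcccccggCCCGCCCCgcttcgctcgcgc
Dpf3 held 9 CpG dinucleotides in this stretch and Dpf1 held 20, at a GC content of 57.5% and 80.8%. The CpG ratio over 500 bp on each side of a TSS had the opposite order, at 0.856 for Dpf3 and 0.697 for Dpf1. The GC box letters were found around 9 of the members' 35 promoter summits (25.7%), against 24.5% of all promoter regions.

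Ss18, the synovial sarcoma translocation gene, and its neural paralog Ss18l1, which encodes CREST, both had a wide promoter region with 7 summits, 1802 bp for Ss18 (chr18:14681690-14683491) and 1656 bp for Ss18l1 (chr2:180041591-180043246). Signals were 11.8 for Ss18 and 12.7 for Ss18l1, and the inputs did not order the pair the same way. The Ss18l1 region is shared with Psma7, a proteasome gene whose TSS was nearer, so the accessible site cannot be ascribed to 1 gene of the pair. Ss18 had 4 distal regions, in intron 3 (chr18:14666869-14667558, signal 17.0, chr18:14656754-14657304, signal 7.68, and chr18:14657374-14657793, signal 6.36) and in intron 4 (chr18:14653763-14654120, signal 10.3). Ss18l1 had 1 in intron 1 (chr2:180050856-180051457, signal 12.8), with an IDR of 0.0482.

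BCL7 proteins are small accessory subunits of BAF. Bcl7b had a signal of 22.6 (chr5:135168038-135169061, 84.7th percentile). Bcl7a and Bcl7c had no thresholded region at all, with the nearest ones 49667 and 36229 bp away. In the pseudoreplicated list Bcl7a had 2 promoter regions (chr5:123344132-123344900, signal 8.02, IDR 0.180, and chr5:123343756-123343997, signal 4.94) and Bcl7c had 1 (chr7:127707969-127709146, signal 7.60, IDR 0.168). CpG content was high at all 3, with ratios of 0.914 for Bcl7a, 0.877 for Bcl7b and 0.834 for Bcl7c.

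BAF47 and BAF57 have no alternative. Smarcb1, which encodes the tumour suppressor BAF47, had 1 region with a signal of 15.2. Smarce1, which encodes the DNA-binding subunit BAF57, had a promoter signal of 13.9 and 3 distal regions, all downstream of the gene. The strongest of these lay 4843 bp beyond its end (chr11:99203812-99204394, signal 12.7).

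ISWI ATPases space nucleosomes. Smarca5, which encodes the broadly expressed SNF2H, had 1 promoter region with a signal of 15.9 (chr8:80739426-80740217). Smarca1, which encodes the neural SNF2L, had no region in either list, and its nearest thresholded region lay 19286 bp away. The 120 bases upstream of each gene are shown in GRCm38.p6 because the pair differs in CpG content (minus strand, chr8:80739498-80739617 for Smarca5 and chrX:47892975-47893094 for Smarca1). Capitals mark the NRF1 letters in Smarca5 and AP-1 letters in Smarca1.
Smarca5: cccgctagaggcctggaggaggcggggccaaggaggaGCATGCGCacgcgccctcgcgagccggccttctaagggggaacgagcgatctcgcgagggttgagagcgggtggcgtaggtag
Smarca1: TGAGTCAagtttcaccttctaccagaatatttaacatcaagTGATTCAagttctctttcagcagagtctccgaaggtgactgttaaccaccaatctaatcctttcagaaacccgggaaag
Smarca5 held 14 CpG dinucleotides here and Smarca1 held 2. The AP-1 letters at Smarca1 stood where no region was recorded.

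NuRD pairs a CHD ATPase with histone deacetylases. Chd4, which encodes the main ATPase Mi-2β in lymphocytes, had a promoter region with the lowest signal of the 28 members, 6.49 (chr6:125095764-125096321, 1.48th percentile), and a distal region in intron 2 of nearly the same signal (chr6:125099176-125099625, 7.02). Chd3, which encodes Mi-2α, had no promoter region within 1000 bp. Its 1 region lay in intron 1, its edge 1463 bp from the nearest TSS (chr11:69366242-69367227, signal 11.95, IDR 0.00204), and became a promoter region when the window was 2500 bp. Chd5, the neural paralog, had none in the thresholded list and its nearest one lay 12131 bp away. In the pseudoreplicated list Chd5 had 2 distal regions, 5521 bp upstream (chr4:152333003-152333243, signal 7.97, IDR 0.0573) and in intron 9 (chr4:152362239-152362625, signal 5.399). Among these 3 genes the thresholded region of highest signal was that of Chd3, although only Chd4 had a region within 1000 bp of a TSS.

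The remaining CHD and INO80 ATPases have no alternative in the list. Chd1, which acts in transcribed genes, had 2 promoter regions (chr17:15705579-15706547, signal 13.9, and chr17:15704261-15705437, signal 8.10). The stronger had its summit in intron 1, 1187 bp from the nearest TSS, and was not a promoter region with a 500 bp window. The weaker had its summit 2 bp from a TSS. The 3 distal regions of Chd1 lay in intron 17 (chr17:15743381-15743937, signal 13.7) and intron 2 (chr17:15715112-15715558, signal 13.4, and chr17:15723102-15723642, signal 10.2). Ino80, the ATPase of the complex of that name, had a promoter signal of 18.5 and a distal region in intron 14 with a signal of 20.4 (chr2:119436873-119437511). Chd8, whose product acts on Wnt target genes, had the highest promoter signal of all members.

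Chd8 had 2 start sites covered and no distal region. The inner one (chr14:52244059-52244939), at a TSS 13271 bp from the 5′ end, had a signal of 30.8 (99.5th percentile), and the one at the 5′ end (chr14:52257375-52258112) had 24.7. The −log10 p values were in the opposite order, at 149 and 152 in the 2 inputs for the inner region and 181 and 184 for the 5′ region. The annotation has 11 TSS clusters of Chd8, of which these 2 were covered. Their upstream 120 bases are shown (minus strand, GRCm38.p6, chr14:52244510-52244629 for the inner start and chr14:52257781-52257900 for the 5′ end), with the GC box in capitals.
Chd8, inner start: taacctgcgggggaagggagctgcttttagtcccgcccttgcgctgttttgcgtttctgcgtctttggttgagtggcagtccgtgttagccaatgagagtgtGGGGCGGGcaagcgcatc
Chd8, 5′ end: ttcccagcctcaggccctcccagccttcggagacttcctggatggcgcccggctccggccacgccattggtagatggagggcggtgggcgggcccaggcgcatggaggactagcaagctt
Each of these stretches held 8 CpG dinucleotides. Over all 35 members, the most upstream TSS cluster had a region in 26 (74.3%), against 45.4% of all genes. Inner clusters had one in 7 of 102 (6.86%), against 8.68% over all genes. Besides Chd8, the inner clusters covered were those of Smarca2, Smarcc1, Smarcd3, Arid1a and Actl6a.

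**Figure D3:**
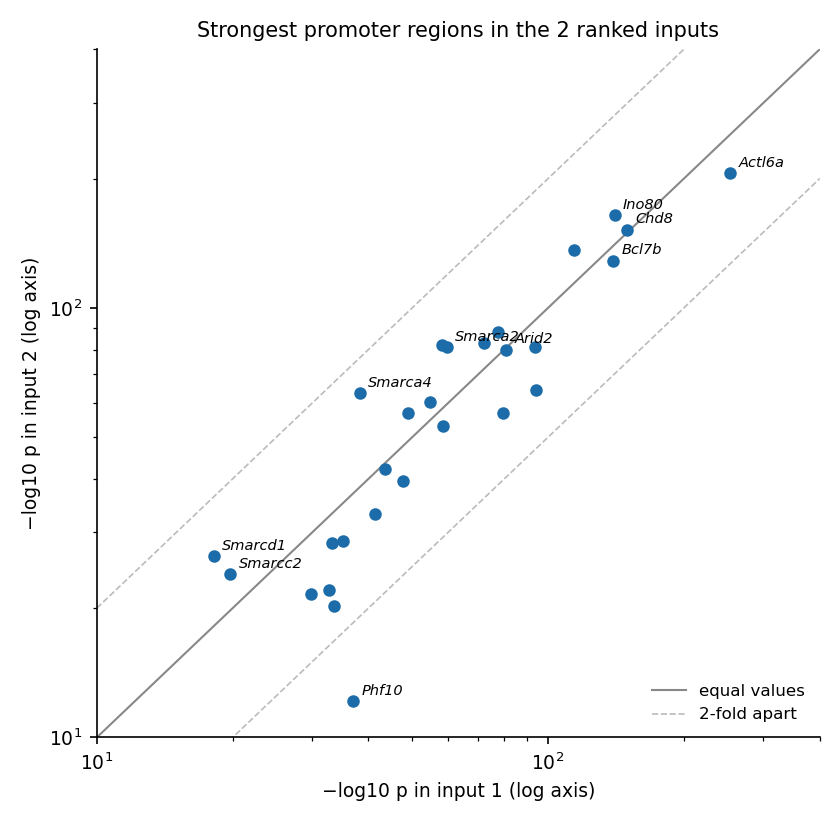
The −log10 p value of the strongest promoter region of each of the 28 genes in input 1 (x axis) and input 2 (y axis) of the ranked list, on log axes. Points lie near the line of equal values, within 2-fold for 27 of 28, and Phf10 is the exception. Over all genes, 98.6% of strongest promoter regions were within 2-fold. The IDR threshold itself keeps peaks that recur between these inputs.

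Chd7, mutated in CHARGE syndrome in humans, had the most regions of the 35 genes, with 16 assigned and 15 of them distal. Counting Chd7 itself, 23 of all genes had as many or more, and over all genes the median was 1, as it was for the members. The territory of Chd7, meaning all bases nearer to its TSSs than to those of any other gene, was 449 kb. Median territories were 62.2 kb for members and 45.0 kb over all genes. No limit of distance was set on territories, so they can include bases over 100 kb from a TSS, where no region was assigned. Among the 1188 genes with a territory of 300 to 600 kb the median was 1 region, and 11, Chd7 included, had 16 or more. Per 100 kb of territory Chd7 had 3.56 regions, more than 75.3% of all genes. The count changed with the rule of assignment, since it was 5 with 1 TSS per gene and 5 within 20 kb, and it was 22 in the pseudoreplicated list.

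The Chd7 promoter region (chr4:8689958-8690995) had a signal of 10.9, lower than 11 of its 15 distal regions. The strongest distal one was in intron 1 (chr4:8720617-8721576, signal 20.8). The 2 upstream regions had a signal of 17.2 each (chr4:8646998-8647795 and chr4:8666687-8667054). Within the gene, a run of regions lay in intron 2 (chr4:8774715-8775510, signal 14.1), intron 3 (chr4:8799223-8799922, 15.6), intron 4 (chr4:8803165-8803428, 7.92), intron 5 (chr4:8805839-8806323, 12.2), intron 6 (chr4:8811005-8811474, 13.3) and intron 7 (chr4:8812366-8812868, 13.7). Further on they lay in intron 15 (chr4:8837417-8838108, signal 14.7), intron 16 (chr4:8838644-8838937, 6.43) and intron 19 (chr4:8842677-8843178, 9.42). Beyond the gene's end were the other 3 (chr4:8912636-8913507, signal 11.6, chr4:8926546-8927112, 15.4, and chr4:8927547-8927878, 8.95). The summit window of the intron 6 region is shown because it holds both the RUNX and the AP-1 motif (plus strand, GRCm38.p6, chr4:8811155-8811355), with their letters in capitals.
Chd7, intron 6 region: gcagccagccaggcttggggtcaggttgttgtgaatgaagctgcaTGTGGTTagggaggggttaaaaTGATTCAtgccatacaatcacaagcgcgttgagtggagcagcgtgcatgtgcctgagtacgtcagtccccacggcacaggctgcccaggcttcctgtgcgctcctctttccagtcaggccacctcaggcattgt
The window held 6 CpG dinucleotides, and no other distal region of Chd7 held both motifs.

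**Figure D4:**
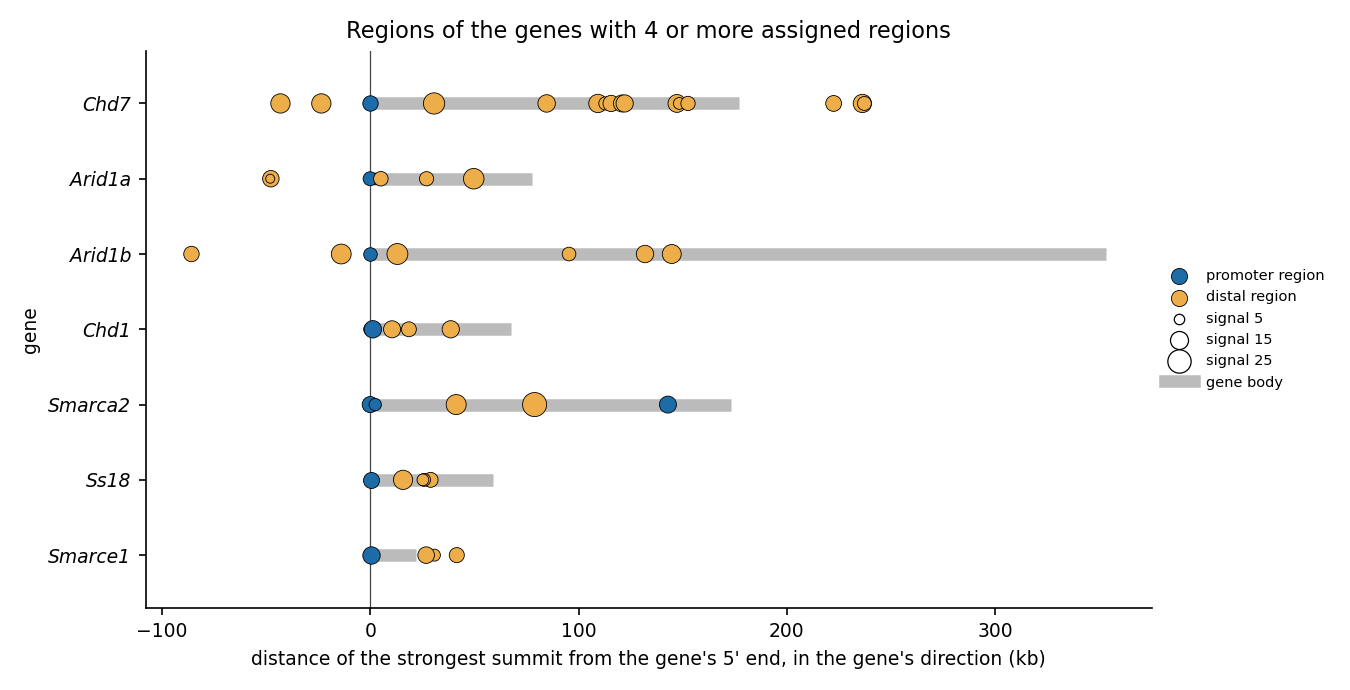
Positions of the regions of the 7 genes with 4 or more assigned regions, as the distance in kb of each strongest summit from the gene's 5′ end in the gene's direction. Grey bars are gene bodies, blue points promoter regions and yellow points distal regions, with area proportional to signal. Most of the regions of Chd7 lie inside the gene, and the strongest point is the intron 19 region of Smarca2.

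The members held 79 assigned regions, of which 47 were distal, or 63 and 32 without Chd7. Of the members, 7 had 0 regions, 13 had 1, 7 had 2 and 8 had 3 or more. Over all genes, 46.9% had 0, 75.9% had fewer than 2 and 87.5% had fewer than 3. Of the distal regions, 32 lay in introns (6 of them in intron 1), 9 upstream and 6 downstream, and 1 lay inside another protein-coding gene. No such split is given here for the distal regions of all genes. The members' distal regions had a median signal of 12.7 and a median width of 541 bp, close to the 12.6 and 524 bp of all distal regions. RUNX letters were found in 10 of the 47 summit windows (21.3%), against 13.6% of all distal windows, and AP-1 letters in 9 (19.1%), against 13.3%. At least 1 of the pair was found in 17 (36.2%), against 25.1%. Neither was found in any of the members' 35 promoter windows, against 3.73% of all promoter windows for RUNX and 3.95% for AP-1. No other motif searched exceeded its share of all distal windows. In the 47 distal windows CTCF core letters were found in 4 (8.51%, against 10.8%) and GC box letters in 1 (2.13%, against 3.17%). ETS, NRF1, YY1, CRE and TATA box letters were found in 0, against 0.351% to 2.71%. These are small counts and the differences were not tested.

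**Figure D5:**
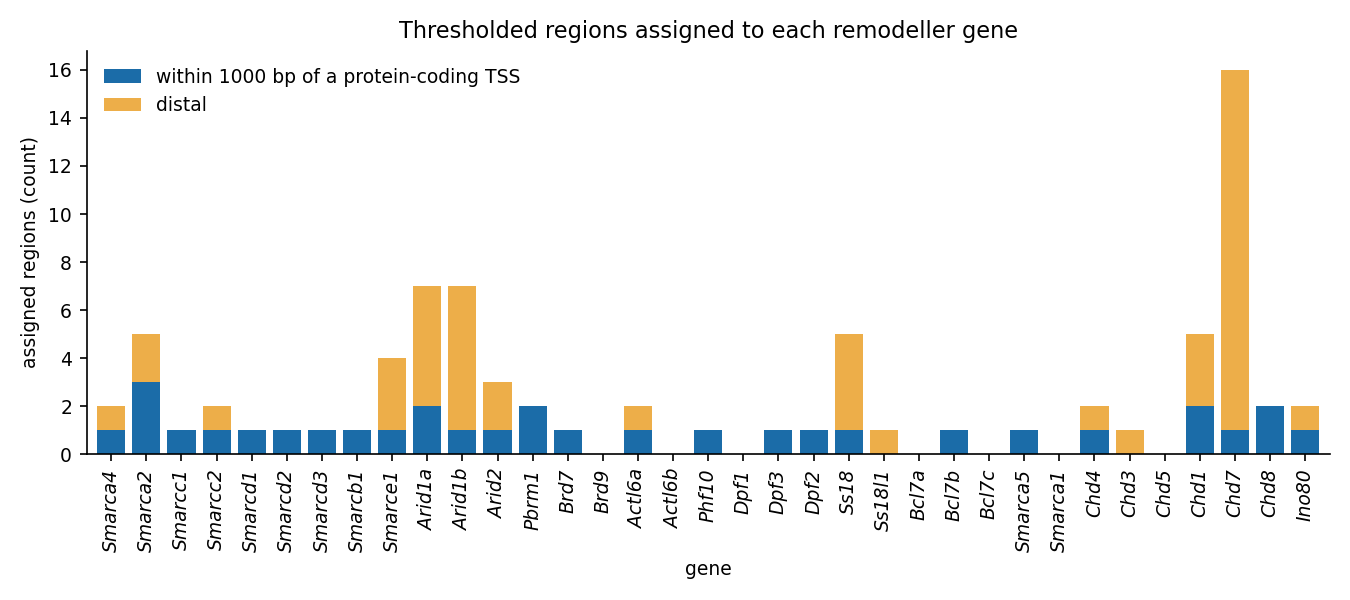
Number of thresholded regions assigned to each of the 35 genes, split into regions within 1000 bp of a protein-coding TSS (blue) and distal regions (yellow). Chd7 has 16, Arid1a and Arid1b 7 each, and Brd9 has 0 because its promoter region was assigned to Trip13.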

How the data were processed

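ATAC-seq peak lists of activated regulatory T cells were read on the mouse build mm10, per the labels and the README that accompanies each library. The authors deposited a pseudoreplicated list, a list ranked by IDR and a list past an IDR of 0.05. The sources used here name no aligner, peak caller, filter or transposase shift and do not say what the 2 ranked inputs were. The deposited signal value is an enrichment whose reference is not stated. The deposited −log10 columns used hold each peak's p value, its global IDR and its p value in each input. The deposited score was not used in any result, and the deposited summit offset placed each summit.

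Overlapping peaks (1 bp) were merged. TSSs of all transcripts of GENCODE M21 protein-coding genes were used, ties going to the first gene ID. CpG ratios were taken over 500 bp on each side of each TSS, keeping the highest, and motifs over 100 bp on each side of summits, in GRCm38.p6 sequence. Within a gene, TSSs under 1000 bp apart form a cluster. 9 motifs were searched.

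The members and lists were chosen with earlier results of these data known. Every member is named, with coordinates for promoter regions where a position has alternatives, for all regions of the genes with most regions, and for the strongest distal region of each. The 53 further remodeller genes are subunits and relatives of the same complexes. Alternatives were the pseudoreplicated list, an IDR of 0.01, unmerged peaks, merging at 50% overlap, a promoter distance of 500 or 2500 bp, only the gene's 5′ end as its TSS, and assignment within 50 or 20 kb. In a check on simulated peaks, the counts of promoter, assigned and distal regions were as planted for 100 of 100 genes. Those genes had 1 TSS each and lay far apart, so shared promoters and genes with several TSSs were not tried. Leaving out a library was not possible, since the lists cannot be separated. Python 3.11.15, numpy 2.4.6, pandas 2.3.3, scipy 1.17.1, pysam 0.24.0 and matplotlib 3.10.9 were used.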

Additional observations from a re-analysis of the deposited data

How the results depend on the processing

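Of 81 recomputed values (9 results under 9 alternatives), 75 stayed within 1.5 times of the reported count or within its interval. Some of these 75 could not move, so their number does not measure robustness. A shorter reach of assignment cannot change which genes have a promoter region, or its signal. The count of 28 members with a promoter region could not rise 1.5 times, as there are 35 members. Merging at the larger overlap returned the reported value for all 9 results. In the pseudoreplicated list the members had 138 regions, 85 of them distal, and 3 positions in place of 5 had an alternative without a promoter region. With unmerged peaks they had 159 regions and a median of 3. With assignment within 20 kb, 27 regions were distal. For these 6 values the alternative's own construction (more peaks, 1 per summit, a shorter reach) sets the change. Promoter regions were gained by Dpf1, Bcl7a and Bcl7c in the pseudoreplicated list, which gave 31 members against 55.7% of all genes, and by Chd3 with a 2500 bp window. They were lost by Smarcd1 and Dpf2 at an IDR of 0.01, which gave 26 members against 45.6% of all genes, and by Smarcd3 and Actl6a with 1 TSS per gene. No paired analysis was possible because the lists are of the whole series and no result comes from a test. Depth is unknown, so a gene without a region may have accessible DNA below what these lists record.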
